A study of Mus musculus with 4 samples.

Results

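The promoter regions described here are the 477 of 10000 captured regions that the deposited table places in a promoter. Within the table they were chosen by that annotation alone, whatever their values, but how its 10000 regions were chosen was not stated. The other regions of the table lie in exons (1658) or introns (7865). The Th17 value is 0 in each of the 477 promoter regions, as in every other row, so the promoters are described here in naive, Th1 and Treg cells.

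Methylated DNA was captured with a methyl-CpG-binding protein and sequenced from CD4+ T cells that were taken from female mice of the Balb/c strain, out of spleen and lymph nodes. Naive cells carried CD3, CD4 and high CD45RB. The T helper populations carried CD3, CD4 and low CD45RB, and were told apart by secretion of interferon gamma without IL-17A (Th1) or of IL-17A without interferon gamma (Th17). Treg cells carried CD3, CD4 and very high CD25. All populations were exposed for 3 h to 10 ng/ml PMA with 500 ng/ml ionomycin, before sorting for naive, Th1 and Th17 cells and after sorting for Treg cells, so that step differs with the population and cannot be told apart from it. There was 1 library per population, and the sources used here do not say whether cells of several mice were pooled, so no difference below has a replicate check.

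A promoter is the stretch of DNA around the start of a gene where the transcription machinery assembles. In mammals most cytosines that precede a guanine (CpGs) are methylated, but promoters dense in CpGs usually stay free of methylation, while CpG-poor promoters of tissue-restricted genes are often methylated in cells that do not use them. Well known exceptions are imprinted genes, methylated on the copy from a single parent, and CpG-rich promoters on the silenced X chromosome of female cells. A captured fragment reports methylation somewhere along its length, and a low value cannot separate fewer methylated cells from fewer methylated CpGs per cell.

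The sequences shown are the 250 bases before the start of genes whose captured region lies over or next to that start, because these are the promoters where the captured DNA includes the start itself or the DNA beside it. They come from RefSeq (GRCm38.p6), matched by gene name, are written 5′ to 3′ on the strand of the gene, and have each CpG in capitals. The captured regions are in mm9 coordinates, so the sequence is that of the gene's promoter and not a cut-out of the region.
Il17a: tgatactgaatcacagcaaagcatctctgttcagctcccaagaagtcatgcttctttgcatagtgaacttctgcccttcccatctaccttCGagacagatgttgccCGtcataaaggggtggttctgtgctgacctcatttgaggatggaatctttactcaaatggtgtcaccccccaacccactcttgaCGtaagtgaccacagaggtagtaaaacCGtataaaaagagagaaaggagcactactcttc
Slc11a1: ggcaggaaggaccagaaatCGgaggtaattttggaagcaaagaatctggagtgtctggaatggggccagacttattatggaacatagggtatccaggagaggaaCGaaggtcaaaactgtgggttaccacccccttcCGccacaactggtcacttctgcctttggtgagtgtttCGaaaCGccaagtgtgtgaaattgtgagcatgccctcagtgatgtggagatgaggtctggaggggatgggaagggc
Prss28: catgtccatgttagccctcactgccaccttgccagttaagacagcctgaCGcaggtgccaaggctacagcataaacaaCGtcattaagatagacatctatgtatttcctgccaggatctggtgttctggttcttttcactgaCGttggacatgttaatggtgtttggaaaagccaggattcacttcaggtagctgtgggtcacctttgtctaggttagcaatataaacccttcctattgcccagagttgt
Krt40: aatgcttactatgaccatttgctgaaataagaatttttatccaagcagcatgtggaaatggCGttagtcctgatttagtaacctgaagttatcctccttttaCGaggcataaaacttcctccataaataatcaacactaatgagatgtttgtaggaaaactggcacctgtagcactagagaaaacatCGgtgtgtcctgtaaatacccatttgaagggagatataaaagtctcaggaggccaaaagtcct
6030419C18Rik: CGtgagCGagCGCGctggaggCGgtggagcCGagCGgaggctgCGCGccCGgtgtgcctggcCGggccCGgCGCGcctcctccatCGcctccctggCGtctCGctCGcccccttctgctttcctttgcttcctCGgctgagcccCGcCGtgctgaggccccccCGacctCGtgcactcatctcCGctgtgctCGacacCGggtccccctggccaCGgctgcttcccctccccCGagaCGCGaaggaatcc
Armcx6: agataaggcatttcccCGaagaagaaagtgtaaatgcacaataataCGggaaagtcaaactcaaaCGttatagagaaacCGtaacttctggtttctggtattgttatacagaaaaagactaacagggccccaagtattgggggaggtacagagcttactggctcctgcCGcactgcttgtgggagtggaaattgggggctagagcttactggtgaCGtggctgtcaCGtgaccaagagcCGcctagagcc
Their positions in GRCm38.p6 are chr1:20730655-20730904 for Il17a, chr1:74374953-74375202 for Slc11a1 and chr17:25308396-25308645 for Prss28, all on the plus strand. Krt40 is at chr11:99543221-99543470 on the minus strand, 6030419C18Rik (named Insyn1 in RefSeq) at chr9:58488353-58488602 on the plus strand, and Armcx6 at chrX:134751420-134751669 on the minus strand. The stretches of Il17a, the cytokine that defines Th17 cells, of Slc11a1, a metal transporter of phagosomes, of Prss28, a serine protease, and of Krt40, a hair keratin, hold 4, 5, 3 and 3 CpGs. That of 6030419C18Rik holds 30 and that of the X-linked Armcx6 holds 8. These last 2 were chosen after their values were seen, as a CpG-rich autosomal and an X-linked case.

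The captured region of Il17a (mm9 chr1:20720822-20721221) spans the gene start and touches exon 1. It held 4 naive, 3 Th1 and 11 Treg reads, which correspond to deposited values of 3.98, 5.04 and 3.88. A deposited value is a number of reads multiplied by a constant for each library, namely 0.996 for a naive, 1.68 for a Th1 and 0.352 for a Treg read. Slc11a1 (chr1:74421528-74421924, exon 1) held 4 naive, 3 Th1 and 15 Treg reads, and Prss28 (chr17:25445153-25445514, no exon) held 3, 5 and 3. Krt40 (chr11:99404343-99404559, exon 1) held 3 naive reads, no Th1 read and 5 Treg reads. The CpG-rich 6030419C18Rik (chr9:58337943-58338152, exon 1) held 5, 1 and 10 reads, and Armcx6 (chrX:131285739-131286175, exon 1) held 4, 2 and 12. The CpG-rich promoter was thus read in all 3 libraries, as were the CpG-poor ones other than Krt40.

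The 477 regions carried 447 gene labels and 472 Ensembl identifiers, and 439 labels had a single region. Regions were 141 to 633 bp long, with a median of 258 bp. Most lay upstream of the gene and not at its start: the median deposited distance was -851 bp (negative is upstream), 295 regions (61.8%) were more than 500 bp upstream, and 209 were more than 1000 bp upstream. Exon 1 was touched by 108 regions (22.6%) and exon 2 by 6, and 363 touched no exon. Measured from the centre of the region, the deposited distance had a median of 146.5 bp for the regions touching exon 1 and -1172 bp for those touching no exon. Of the identifiers, 91 also had a region in the exons or introns of the same gene.

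**Figure D1:**
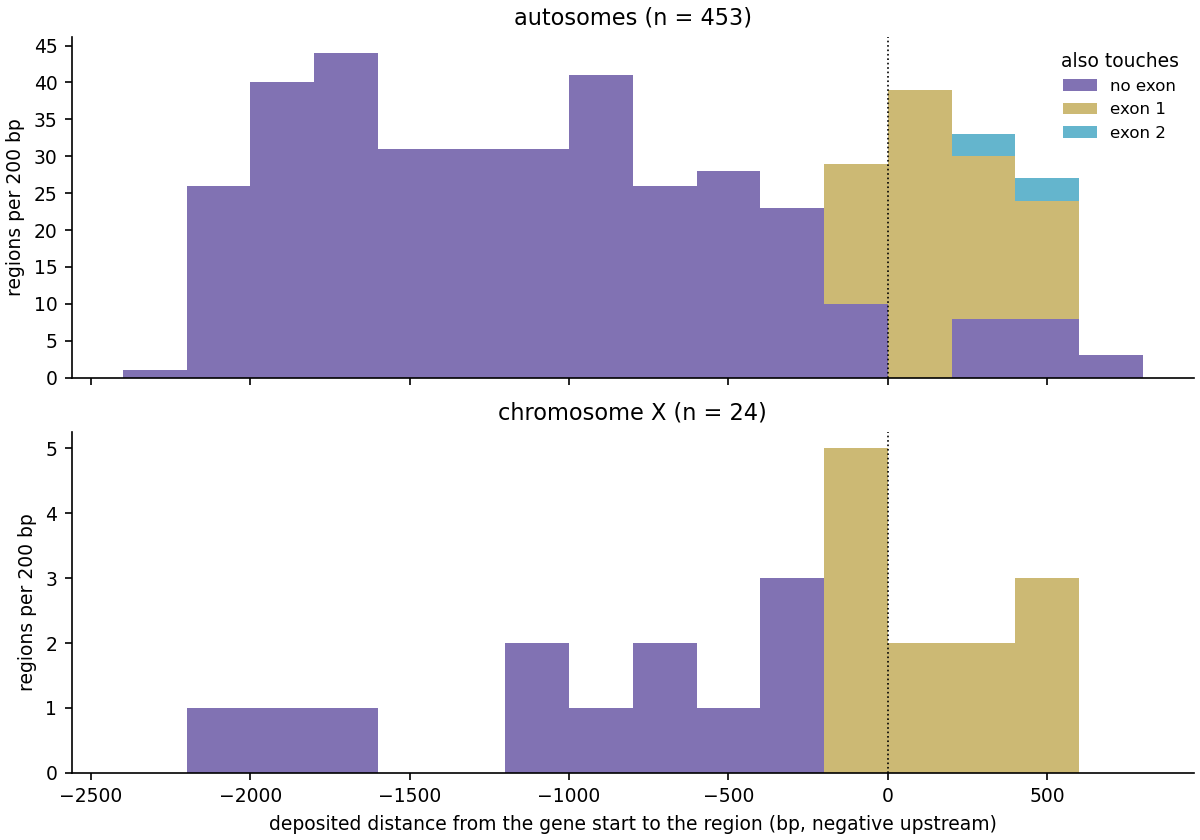
Number of promoter regions by deposited distance from the gene start (bp, negative upstream, bars of 200 bp), for autosomes (n = 453) and chromosome X (n = 24), with colours for the exon each region also touches. Autosomal regions are spread over the upstream side, with a median of -891 bp, whereas the X-linked ones have a median of -158.5 bp.

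The genes behind these regions were a mixture in which non-coding and predicted loci took a larger share than elsewhere in the table. Labels of small RNAs (spliceosomal U6, small nucleolar RNAs, 7SK and the like) made up 43 promoter regions (9.01%), against 0.0603% of exon and 0% of intron regions. Predicted or clone-named genes made up 136 (28.5%), against 8.62% of exon and 9.43% of intron regions. Olfactory, vomeronasal and taste receptors, which are read in sensory neurons, made up 22 (4.61%), against 0.603% and 0.0636%. As background, small RNA and olfactory receptor genes often have few or no introns; whether this sets their shares was not tested. By RefSeq, 303 of the 447 labels (67.8%) were protein-coding, and 73 labels had no match.

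At the level of the class, promoters had nearly the same signal as other regions of the table. The median total was 13 reads in promoter, exon and intron regions alike. How the table's regions were chosen is unknown, so the likeness holds for listed regions only. Whether that choice sets it was not tested. Naive cells had a mean deposited value of 3.55 per promoter region (95% Poisson interval 3.38 to 3.72), Th1 cells of 3.30 (3.09 to 3.52), and Treg cells of 2.71 (2.62 to 2.80). These means rest on 1698 naive, 937 Th1 and 3667 Treg reads, and the intervals cover counting error only, since reads of captured DNA are not independent molecules. Exon regions averaged 3.28 (3.20 to 3.37), 3.43 (3.31 to 3.54) and 2.88 (2.83 to 2.93). Promoters were therefore above exons in naive cells by 0.11 on the log2 scale (0.03 to 0.19) and below them in Treg cells by 0.09 (log2 -0.09, -0.14 to -0.04), while in Th1 cells the interval included 0 (log2 -0.05, -0.16 to 0.05). Intron regions averaged 3.43, 3.26 and 2.57, and only the Treg interval of promoters against introns left out 0 (log2 0.08, 0.03 to 0.12); per kb of region that difference was 0.01, and the naive and Th1 differences were -0.02 and -0.04. Regions of a library are not replicates, so no test was made over them.

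Promoters that touched exon 1 and promoters that touched no exon were also close. The former averaged 3.75 in naive (3.40 to 4.14), 3.28 in Th1 (2.86 to 3.76) and 2.90 in Treg (2.71 to 3.10). The latter averaged 3.50 (3.31 to 3.70), 3.30 (3.06 to 3.55) and 2.63 (2.53 to 2.73). On the log2 scale the exon 1 promoters were higher in Treg by 0.14 (0.03 to 0.25), and the naive difference of 0.10 (-0.06 to 0.26) and the Th1 difference of -0.01 (-0.23 to 0.22) had intervals that included 0. Per kb of region the Treg difference was 0.07, the naive one -0.01 and the Th1 one -0.13. By distance, the naive mean lay between 3.38 (79 regions 1000 to 1500 bp upstream) and 3.81 (47 regions 150 to 500 bp upstream). In Treg cells the 130 regions more than 1500 bp upstream averaged 2.57 (2.41 to 2.74) and the 78 regions more than 150 bp downstream averaged 3.01 (2.79 to 3.25), intervals that did not overlap. These were the lowest and highest Treg means among the distance classes. Per kb of region they were 9.28 and 10.1, and the highest Treg value per kb was 10.8, at 1000 to 1500 bp upstream.

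**Figure D2:**
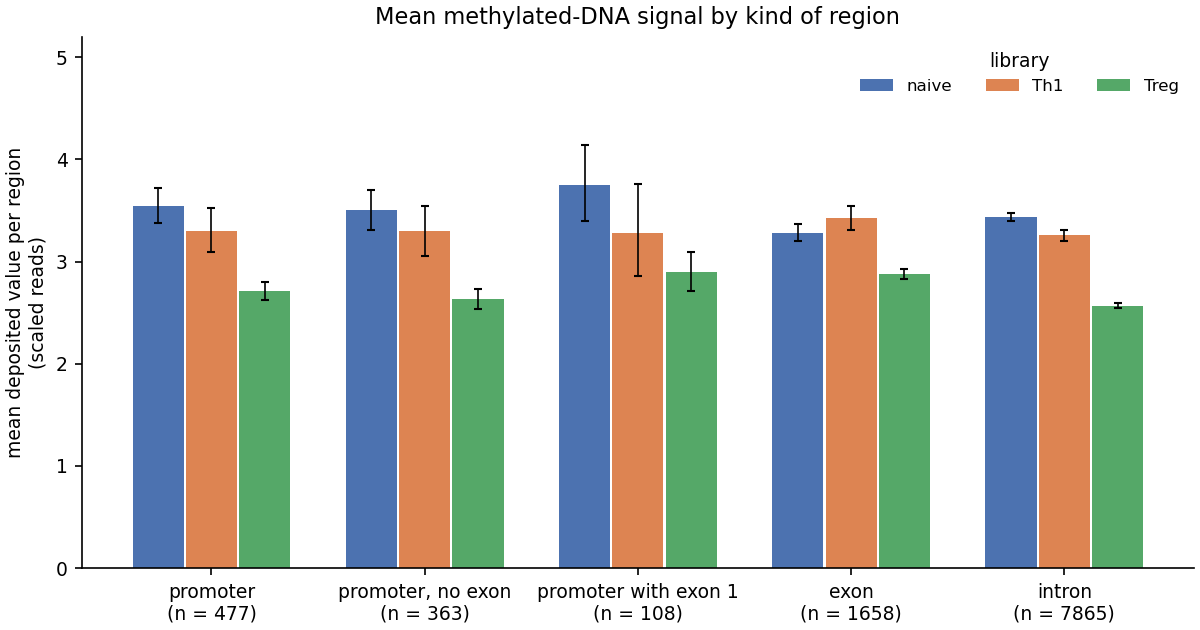
Mean deposited value per region (scaled reads, bars from 0) in the naive, Th1 and Treg libraries for all promoter regions, those touching no exon, those touching exon 1, and the exon and intron regions of the table; error bars are 95% Poisson intervals on the reads. Promoters average 3.55, 3.30 and 2.71, close to the exon and intron means in each library.

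Single promoters rested on few reads. A promoter had 3 to 27 reads over the 3 libraries together, with a median of 13, made up of medians of 4 naive, 2 Th1 and 8 Treg reads. All 3 libraries had reads in 407 promoters (85.3%, against 85.9% of the table). No Th1 read was found in 60 promoters (12.6%, against 12.3%), no naive read in 11 (2.31%, against 1.61%), and every promoter had at least 1 Treg read. A count of 0 was taken to allow up to 3 reads, which is a value of 2.99 in naive and 5.04 in Th1 (the 2-sided 95% Poisson limits are higher, at 3.67 and 6.20), the latter above the Th1 promoter mean, so an unread promoter is not shown to be unmethylated. Jph4, a junctophilin of neurons, was the promoter read in a single library, with 7 Treg reads.

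The same limit holds for Th17. If the Th17 library had the depth of the Th1 library, a promoter at the median level would hold no read in 17.5% of cases by Poisson counting, in 5.28% at naive depth and in 0.0245% at Treg depth. The Th17 depth is unknown, and the Th17 zeros of Il17a or any other promoter are given here as listed values without a fold.

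Among the 12 promoters with the highest mean over the 3 read libraries, 1 belonged to a T helper list (Ltb4r1). A region upstream of a SNORD116 copy (chr7:67004473-67004652), a small nucleolar RNA of the imprinted Prader-Willi region that is active on the paternal chromosome, came first. It held 18 naive, 3 Th1 and 6 Treg reads, or values of 17.9, 5.04 and 2.11, so the naive library stood above both others. Gm5244 (chr19:12921257-12921559) followed with 6, 8 and 9 reads, where Th1 had the highest value at 13.4. Adrb3 (chr8:28340249-28340529), the adrenergic receptor of fat cells, had 4, 8 and 7 reads and the same Th1 value of 13.4.

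2 of the 12 highest regions were neighbours on chromosome 10. That of 4933403O03Rik (chr10:57690938-57691209) held 11 naive, 3 Th1 and 13 Treg reads, and that of Dux (chr10:57689060-57689464), a transcription factor of the early embryo, held 8, 4 and 11. They lie 1474 bp apart and had the same order of libraries, with naive highest. Dux belongs to a repeated gene family, and the sources used here do not say how reads with several matches were treated, so the origin of its reads is uncertain.

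The remaining highest regions differed in which library led. Gm16478 (11, 4 and 7 reads), Tmem41a (7, 4 and 7) and Heatr7b1 (11, 1 and 15) had their highest value in naive cells, at 10.96, 6.97 and 10.96. Gtf2f1, a subunit of the general transcription factor TFIIF, led in Th1 with a value of 8.40 on 5 reads, and 1810020O05Rik led in Th1 with 6.72 on 4 reads. Ltb4r1 (chr14:56384919-56385186, exon 1), the high-affinity receptor for the lipid attractant leukotriene B4, and Gm8659 on chromosome X each held 5, 3 and 16 reads. Their values were 4.98, 5.04 and 5.64, nearly level across the 3 populations. Il17a ranked at place 50 of the 477.

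**Figure D3:**
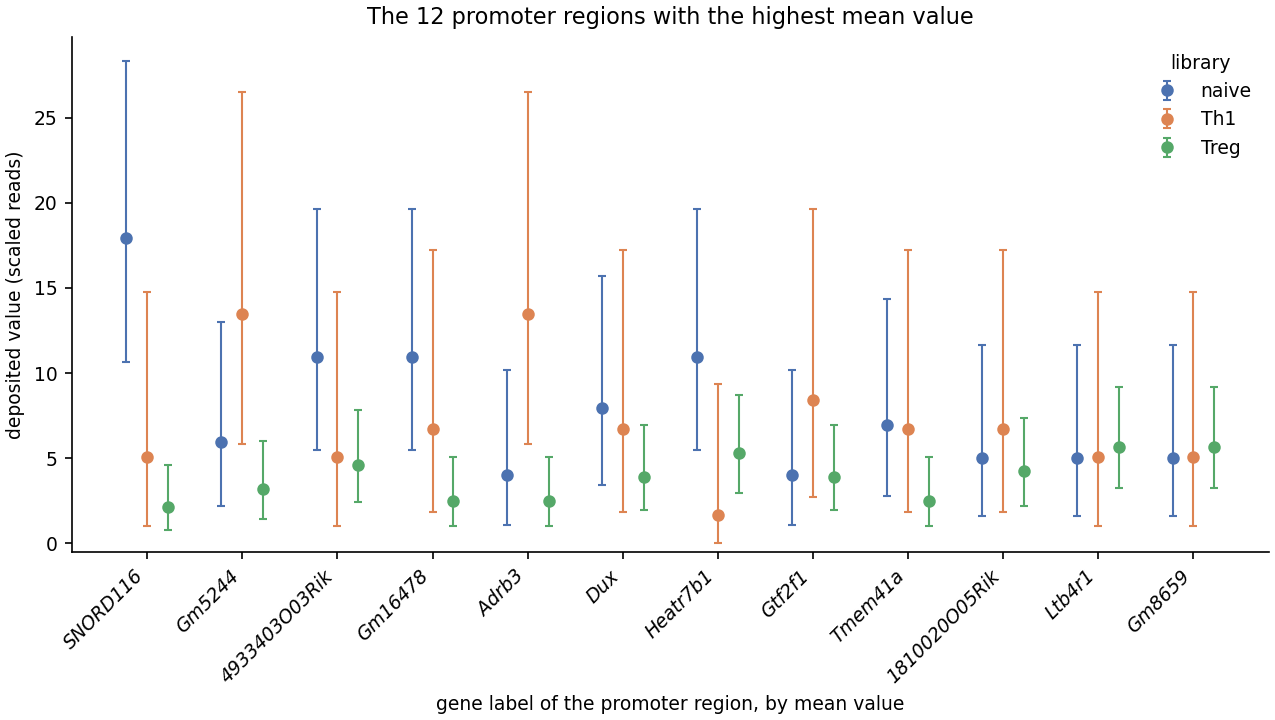
Deposited values (scaled reads) of the 12 promoter regions with the highest mean, in order of that mean, for the naive, Th1 and Treg libraries; error bars are 95% Poisson intervals. SNORD116 stands at 17.9 in naive and 2.11 in Treg, while the intervals of most other regions overlap between libraries.

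Th1 and naive promoters were compared with a size rule, since 1 library per population allows no test: a promoter counted as different when the log2 ratio of its values, with 0.5 added to each, was at least 1 in size. Th1 was higher at 97 promoters (20.3%) and lower at 148 (31.03%). The rule called 19.4% of all table regions higher and 29% lower, so the promoters stood near the background. The summed promoter signal differed by -0.10 on the log2 scale (-0.22 to 0.01), an interval that included 0. With the reads scaled to equal table totals the counts were 98 higher and 106 lower, against 19.6% and 21.3% of all table regions. Of the 148 lower promoters, 59 had no Th1 read.

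The largest Th1 excesses over naive were at promoters with no naive read, so their folds are taken against 3 reads, the naive floor of 2.99. Folds against a floor leave out the counting error of the higher library. Among them, Sgsm1 had 4 Th1 and 5 Treg reads, and Tmem150a had 4 and 8, each with a Th1 value 2.25-fold above that floor. The interval of 4 Th1 reads, 1.83 to 17.2, includes the floor. Mcpt1, a mast cell protease, and A430078I02Rik had 3 Th1 reads each. The 5 largest deficits were at promoters with no Th1 read. C130026I21Rik held 10 naive and 8 Treg reads. Its naive value was 1.98-fold above the Th1 floor of 5.04, which lies within its counting interval (4.78 to 18.3). Galp, a galanin-like peptide of the hypothalamus, 5930422O12Rik and Fuz, a planar cell polarity protein of cilia, held 7 naive reads each, 1.38-fold above that floor. 1110001A16Rik had 6, a value of 5.98 that lies under the 2-sided limit for 0 Th1 reads, so no fold is given. Such folds are small. An exact binomial test of the reads, adjusted by Benjamini-Hochberg over all 10000 regions, compares these libraries and not the populations. It called 0 promoters (0% of the table in either direction).

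Treg promoters were more often lower than higher against naive. Treg was higher at 38 promoters (7.97%, against 8.33% of the table) and lower at 107 (22.4%, against 22.2%), so this tilt was that of the whole table. The summed promoter signal was lower in Treg by 0.39 on the log2 scale (log2 -0.39, -0.47 to -0.30), and that of all other regions by 0.38 (log2 -0.38). The tilt rests on the authors' constants: with the reads of each library scaled to the same table total, the counts were 71 higher and 60 lower and the log2 difference of the sums was -0.01. That scaling moved the median log2 ratio of all regions from -0.29 to 0.04, and with median-of-ratios scaling the promoter counts were 62 and 65. Of all table regions, 15.2% were higher and 12.3% lower at equal totals, and 13.4% and 13.1% with median-of-ratios scaling.

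SNORD116 gave the clearest single difference. Its value was 8.48-fold lower in Treg than in naive cells (95% interval of the fold 3.22 to 26.1), and the exact binomial test, adjusted by Benjamini-Hochberg, gave an adjusted p of 0.00794 for these libraries. It was the 1 promoter that test called, and no other region of the table was called (0.01% lower and 0% higher). Scaled to equal totals, its adjusted p in the same exact test was 0.15. All 3 promoter regions labelled SNORD116 together held 27 naive, 8 Th1 and 15 Treg reads, with 6 and 3 naive reads in the other 2. Copies of this small RNA lie in a tandem array, so the assignment of its reads to a copy is uncertain.

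The other large Treg deficits against naive rested on 1 or 2 Treg reads. Gm9836 had 6 naive reads and 1 Treg read (fold 17.0, interval 2.06 to 780.0), and Hcfc1r1, a regulator of host cell factor, had 5 and 1 (fold 14.1, 1.58 to 668). 1110001A16Rik and AC123838.1 had 6 naive and 2 Treg reads each. Among the largest Treg excesses, all at promoters without a naive read, A430078I02Rik had 14 Treg reads, a value 1.65-fold above the naive floor. Mcpt1 had 12, 1.42-fold above it. These folds again leave out the counting error of the Treg reads. Both promoters were also among the largest Th1 excesses over naive, a pair of comparisons that share the naive library. Nme1, a nucleoside diphosphate kinase, with 11 Treg reads was 1.30-fold above the naive floor. Hn1 and Aass, an enzyme of lysine breakdown, had 10 Treg reads each, a value of 3.52 that lies under the 2-sided limit for 0 naive reads.

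Between Treg and Th1, 85 promoters were higher in Treg (17.8%, against 17% of the table) and 96 lower (20.1%, against 21%). The log2 ratio of the sums was -0.29 (-0.39 to -0.18), against -0.32 for all other regions. At equal table totals it was 0.04 and the counts were 118 higher and 80 lower, so the direction for the class turned with the scaling. The whole table turned as well, with 22.6% of all regions then higher and 15.2% lower. Of the 85 promoters higher in Treg, 59 had no Th1 read. The largest of these, 1600012H06Rik and Gm17576 with 14 Treg reads, and Rims1, a protein of synaptic release sites, Pde4b, which breaks down cyclic AMP, and SNORA3 with 13, had Treg values of 4.93 or 4.58, under the Th1 floor of 5.04, so no fold is given. In the other direction Rnf185, a ubiquitin ligase, had 4 Th1 reads and 1 Treg read (fold 19.08, interval 1.89 to 939), Prss28 had 5 and 3 (fold 7.95, 1.55 to 51.2), and Slc27a2, an enzyme that activates very long fatty acids, had 6 and 4 (fold 7.15, 1.70 to 34.5). A U6 copy and Gm12873 had 4 Th1 and 2 Treg reads each. The exact binomial test with Benjamini-Hochberg adjustment called 0 promoters (0% of the table in either direction).

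**Figure D4:**
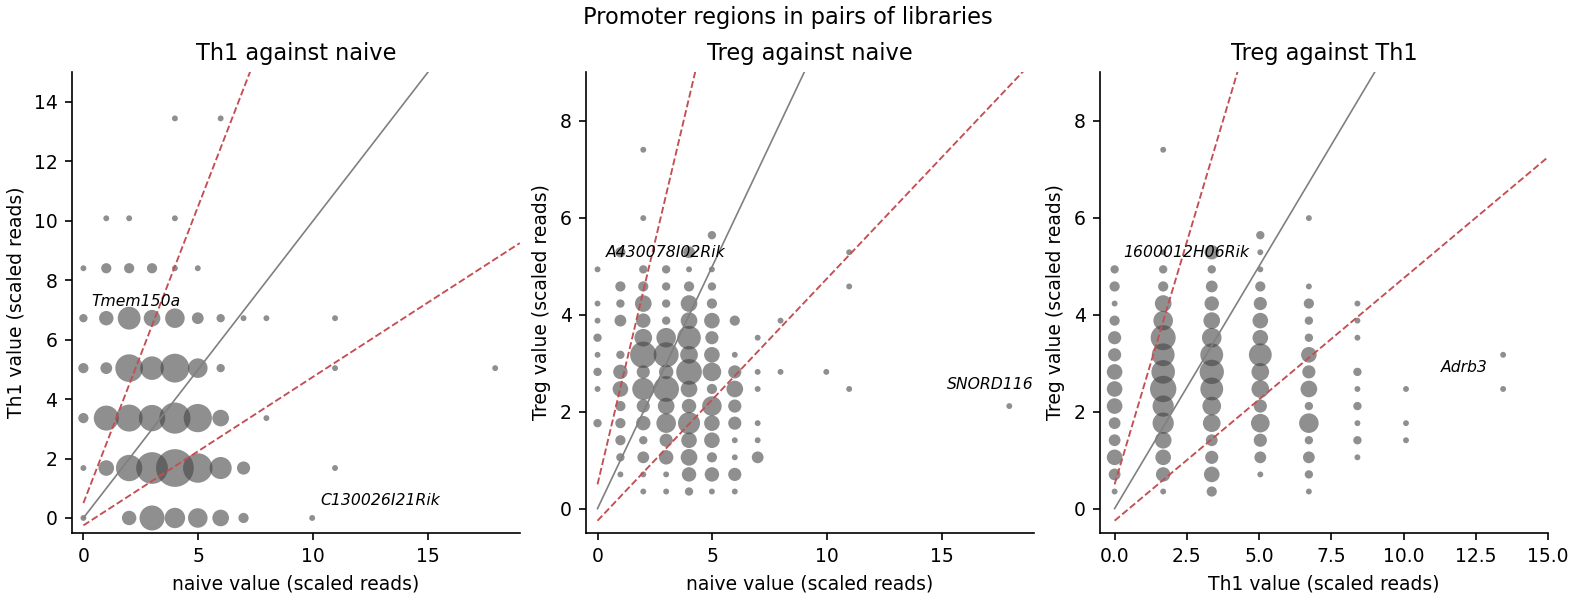
Deposited values (scaled reads) of the 477 promoter regions in each pair of libraries; the area of a point grows with the number of regions at that pair of values, the solid line marks equal values and the dashed lines the size rule of a log2 ratio of 1 with 0.5 added. Points sit on a grid because values are whole reads times a constant, and SNORD116 stands apart at a naive value of 17.9.

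When a library was set against both others, naive was at least 2-fold higher at 58 promoters (12.2%, against 11.2% of the table) and lower at 30 (6.29%, against 6.05%). Th1 was higher at 43 (9.01%, against 9.1%) and lower at 73 (15.3%, against 13.7%), and Treg was higher at 4 (0.839%, against 1.42%) and lower at 40 (8.39%, against 8.32%). All these shares were near those of the table. The 4 promoters at least 2-fold higher in Treg than in both others were Gm9144 with 2 naive, 1 Th1 and 21 Treg reads, Pfdn5, a subunit of the prefoldin chaperone, with 2, 1 and 14, Arap3 with 1, 1 and 13, and Jph4; they were named after their values were seen.

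A few genes of T helper biology had a promoter region. Of 30 Th17 genes listed, 2 (6.67%) had one, Il17a and Ltb4r1, whereas 10 had a region anywhere in the table. None of 30 Th1 genes, 26 Treg genes, 32 genes of T cell receptor signalling and 32 genes of DNA methylation and chromatin had one. For scale, 303 of 21896 protein-coding genes (1.38%) had a promoter region, a share at which lists of this length would hold few or none. Of 23 Th2 and Tfh genes the promoters were those of Il31, an itch cytokine, with 4 naive, 2 Th1 and 8 Treg reads, and Pou2af1, a coactivator of octamer factors in lymphocytes, with 2, 6 and 7. Pou2af1 had its highest value in Th1, 10.1, against 1.99 in naive and 2.47 in Treg. Of 24 naive and trafficking genes the promoter of Selplg, the P-selectin ligand of leukocytes, was read with 5, 3 and 11 reads.

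Promoters of cytokines and their receptors were 6 of 219. Beside Il17a and Il31 they were Il12a, a subunit of interleukin 12 (3 naive, 1 Th1 and 10 Treg reads), Il17d (6, 1 and 5), Il3ra (3, 3 and 6) and Lifr, the receptor for leukemia inhibitory factor (5, 2 and 12). Il17d had its highest value in naive, 5.98, against 1.68 and 1.76, on few reads. The promoters of Il12a, Il17d and Lifr lay at distances of -2006 to -972 bp and touched no exon, whereas those of Il17a and Il31 touched exon 1.

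Markers of other cell types in a sorted sample are no measure of purity here, since methylated DNA is not expression. Of 16 B cell genes, 1 (6.25%) had a promoter region, with 16 reads over the 3 libraries together. None of 22 myeloid and dendritic, 18 NK, CD8 and gamma-delta T cell and 13 erythroid and megakaryocyte genes had one.

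Promoters of several gene families formed small groups. Of 242 ion channel genes 6 (2.48%) had a promoter region, against 1.38% of all protein-coding genes. They were P2rx7, an ATP-gated channel, with 2, 4 and 17 reads in naive, Th1 and Treg, Kcnj9 with 1, 2 and 13, Scn11a with 4, 1 and 10, Kcnk7 with 2, 2 and 10, Grik4 with 2, 1 and 9, and Gabrq with 5, 2 and 5. The solute carriers with a promoter region included Slc11a1 and Slc27a2 as above, Slc44a4 with 5, 5 and 6 reads, Slc30a8, the zinc transporter of insulin granules, with 7, 1 and 4, and Slc22a14 with 2, 2 and 9. Of 192 keratin and skin barrier genes Krt40, Krtap4-7 (4, 1 and 6) and Krtap9-3 (3, 1 and 7) had a promoter region (1.56%). Of 149 homeobox, SOX, GATA and T-box factors, only Gata2, a factor of blood stem cells and mast cells, had a promoter region, with 2, 1 and 12 reads. Of 466 zinc finger genes 6 (1.29%) had a promoter region, Zfp185 with 4, 4 and 8 reads, Zfp286 with 6, 3 and 3, Zfp819 with 5, 2 and 4, Zfp648 with 5, 1 and 8, Zfp2 with 1, 2 and 12, and Zfp653 with 2, 1 and 10.

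Among the sensory receptors, Olfr684 had 4 naive, 4 Th1 and 11 Treg reads, Olfr1387 had 5, 4 and 5, Olfr1026 had 7, 1 and 10, and Olfr750 had 2, 4 and 8. The 22 sensory receptor promoters together averaged 3.85 in naive (3.07 to 4.76), 3.06 in Th1 and 2.92 in Treg cells, levels whose intervals included the means of all promoters. The histone genes H1fx (5, 2 and 6), H2afv (2, 1 and 12) and Hist3h2ba (5, 1 and 5) were read. The muscle oxygen carrier Mb had 3, 3 and 10 reads, Hgfac, the activator of hepatocyte growth factor, 4, 2 and 9, and the protocadherin Pcdhb3 2, 4 and 3.

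Labels shared by several promoter regions were mostly small RNAs. SNORA17 had 11 regions on 8 chromosomes with 38 naive, 15 Th1 and 75 Treg reads in all, U6 had 10 on 6 chromosomes (32, 20 and 45) and 7SK had 6 (18, 14 and 37). As near-identical copies of such genes lie across the genome, which copy a read came from is uncertain. The 43 small RNA promoters averaged 3.87 in naive (3.30 to 4.50), 2.89 in Th1 (2.27 to 3.63) and 2.18 in Treg cells (1.93 to 2.46). The Treg interval lay below the promoter mean of 2.71. Without the 3 SNORD116 regions the naive mean was 3.49. SNORD115, the neighbouring imprinted small RNA, had 5, 2 and 10 reads at its promoter and thus no naive excess like that of SNORD116.

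A few genes had a pair of promoter regions, which allows a comparison along the same promoter. Lamc3, a laminin chain, had 3, 1 and 9 reads in its upstream region and 3, 2 and 14 over exon 1. Gm12445 had 3, 1 and 6 upstream and 3, 1 and 10 over exon 1. Cck, the gut and brain peptide cholecystokinin, had 0, 2 and 5 reads in the farther region and 3, 1 and 9 in the nearer, and Spata20, a testis protein, had 6, 0 and 6 and 3, 1 and 7. Treg, the deepest library, was the most read in both regions of Lamc3, Gm12445 and Cck.

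Chromosome X held a larger share of the promoters than of other regions. It carried 24 of 477 promoters (5.03%), against 3.02% of exon and 1.60% of intron regions. Promoters made up 12% of all X-linked regions in the table, the highest share of any chromosome, followed by 7.84% on chromosome 11. The X-linked promoters also lay nearer the gene start: 12 of 24 (50%) touched exon 1, against 96 of 453 (21.2%) on autosomes. Their mean values were 3.53 in naive (2.82 to 4.36), 3.78 in Th1 (2.84 to 4.93) and 2.39 in Treg cells (2.04 to 2.79), each interval overlapping that of the autosomal promoters.

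X-linked genes with a promoter region included Uba1, Ikbkg and Pqbp1, beside predicted genes and tissue-restricted ones such as Gabrq. Uba1, the enzyme that starts ubiquitin transfer, had 4 naive, 1 Th1 and 7 Treg reads over exon 1. Ikbkg, the regulatory subunit of the kinase that activates NF-kB, had 3, 3 and 5, also over exon 1, and Pqbp1, a splicing-associated protein, had 2, 3 and 9. Morc4 had 5, 3 and 8, Gpc4 6, 1 and 8, and 2900056M20Rik, a long non-coding RNA named Kantr in RefSeq, 5, 2 and 5. All 6 of these, named after their values were seen, were read in the 3 libraries. Whether the second, silenced X of these female cells contributed the reads was not tested.

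CpG content could be read for 270 of the 447 labels, through the RefSeq window from 250 bases before to 50 bases after the start. As this is under 80% of the labels, a check of the whole set is void, and the values describe the matched genes. A window was called low in CpG with an observed to expected ratio under 0.48 and high with a ratio over 0.75 and a GC share over 55%. Of the windows of matched genes, 54.1% were low and 21.3% high, against 56.8% and 22.0% of all 32851 RefSeq windows. For 36 matched genes a captured region lay over the window of the gene start, by the deposited distance. Of all 48 RefSeq windows of these genes, 70.8% were low and 6.25% high. Some of these windows belong to other starts of the gene, which the region need not cover. The matched genes whose regions lay only more than 500 bp upstream had 45.2% low and 27.4% high windows. Among protein-coding genes, windows were 65.9% low and 7.32% high with a region over the start window. With regions only more than 500 bp upstream they were 42.7% low and 29.1% high, near the shares of all protein-coding windows.

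That contrast differed between X and autosomes among the matched genes. With a region over the start window, 4 of 30 autosomal genes (13.3%) had any window that was not low. They were Anxa9, Iffo2, 6030419C18Rik and Gpx7. Of 6 X-linked genes, 5 had such a window (83.3%). Among all genes the shares were 45.9% on autosomes and 41.0% on X. These shares count every window of a gene, also those the region need not cover. The 6 X-linked genes had 12 windows and the 30 autosomal ones 36, so their chances to hold a window that was not low were unequal. Counted by window, 32 of 36 autosomal and 2 of 12 X-linked windows were low. The median window held 3.5 CpGs in the autosomal and 12.5 in the X-linked cases. The letters of Il17a and Armcx6 shown above illustrate both kinds, with 6 and 10 CpGs in the full window.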

How the data were processed

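Methylated DNA from 4 CD4+ T cell populations was captured with a MethylCap kit, and 250 ng of it went into each library, per the labels' protocols. Bowtie 0.12.7, FastQC and mm9 are named, without their roles, in the submitters' processing notes. How the regions were called, how 10000 were chosen and how duplicate or multiply matching reads were handled was not stated in these sources. The authors' deposited signal per region is a read number times a constant that differs by library. Division by that constant gave whole reads for 100% of the naive, Th1 and Treg values (relative tolerance 1e-06). The table held 34277 naive, 19548 Th1 and 74571 Treg reads, of which promoters took 4.95%, 4.79% and 4.92%; Th17 depth is unknown, since all its values are 0. A column of distance and the labels of location and exon were used as deposited. All columns of values were matched to samples by name.

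Intervals are exact Poisson intervals at 95%, and intervals of ratios are exact conditional binomial ones; both cover counting error only. Differences used a log2 ratio of at least 1 in size with a pseudocount of 0.5. The exact binomial test was 2-sided, with Benjamini-Hochberg adjustment over the table at 0.05, and was tested on simulated data. Regions named are the 12 with the highest mean, the 5 with the largest ratio per pair and direction, genes with several regions, and for each of 27 gene lists all its promoters where there were 6 or fewer and otherwise the 4 highest, and Il17a. The muscle, liver, neuronal and protocadherin lists gave 1 promoter each, and the germline list gave Spata20. A few regions picked by this rule are left out of the text. The members, lists and rules were chosen with earlier results of these data known. Names were matched to a GRCm38.p6 RefSeq table (374 of 447 labels, 39 of them by synonym), used for names and start windows. Coordinates are mm9 unless GRCm38.p6 is named. Alternatives were other sizes, a pseudocount of 5, 2 other scalings, a filter at 12 reads, summed neighbours, values per kb and, chosen after seeing the data, leaving out small RNAs or chromosome X. Tools were Python 3.11.15, numpy 2.4.6, pandas 2.3.3, scipy 1.17.1 and matplotlib 3.10.9.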

Additional observations from a re-analysis of the deposited data

How the results depend on the processing

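No paired analysis was possible because each population has 1 library. Counts of promoters moved with the size asked for. At 1.5-fold, Th1 against naive gave 147 higher, Treg against naive 76 higher and 177 lower, and Treg against Th1 135 higher and 159 lower. At a log2 size of 1.5 the counts higher and lower were 44 and 80, 24 and 58, and 56 and 52. With a pseudocount of 5 they were 12 and 14, 0 and 3, and 0 and 11. Among the 315 promoters with at least 12 reads, Th1 was lower than naive at 85, Treg lower than naive at 42, and Treg was higher than Th1 at 50 and lower at 44; these counts come from fewer regions. At equal table totals, Treg against naive gave 71 higher and 60 lower, against 15.2% and 12.3% of the table. With median-of-ratios scaling it gave 62 and 65, against 13.4% and 13.1%. Treg against Th1 then gave 62 lower, against 12.2%. For the other sizes, the pseudocount of 5 and the filter at 12 reads, shares of the table are not given. Those counts therefore cannot be set against the table. The exact binomial test called 0 and 0, 0 and 1, and 0 and 0, all on few reads per region. At equal totals the log2 ratio of summed promoter signal was -0.0106 for Treg against naive and reversed to 0.0369 for Treg against Th1. Per kb, promoters exceeded introns in Treg by 0.0092 on the log2 scale. For genes with a promoter region over the start window, 88.9% of all their windows were low in CpG without chromosome X. The chance of no Th17 read was 0.0245% at Treg depth. Causes were not tested. Of the other values, 57 summary values moved by less than their counting interval or 1.5 times. Among these, differences whose intervals included 0 changed sign per kb: promoters against introns to -0.02 in naive and -0.04 in Th1, and exon 1 against no exon to -0.01 in naive. For single regions, 137 values kept direction and size rule, and 13 lost the size rule, all with the pseudocount of 5. These regions were picked for the largest ratios, so the other sizes could not and the other scalings could hardly drop them. With the pseudocount of 5, 17 kept the size rule and 13 lost it. Limits are the lack of replicates, the scaling, and depth, with medians of 4, 2 and 8 reads per promoter.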
